A study of Homo sapiens and Homo sapiens
Mus musculus and Mus musculus with 9 samples.

Results

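The 10 genes described here were 3 TGF-beta ligands (TGFB1, TGFB2 and TGFB3), 3 receptors (TGFBR1, TGFBR2 and TGFBR3), 3 SMAD proteins (SMAD2, SMAD3 and SMAD4) and the repressor SKIL, picked by symbol from the 41713 genes of the human expression table. All 10 were protein-coding and had a value above 0 in each of 3 pipelines. C4-2B cells are human prostate cancer cells of an established line that spreads to bone, and MC3T3-E1 is a mouse osteoblast cell line. Human RNA was profiled in 3 libraries of C4-2B cells cultured alone and in 3 libraries of the mixed co-culture, which was seeded with 1 C4-2B cell to 30 MC3T3-E1 cells. All samples were wild type by their labels and were grown in alpha-MEM with serum, and 3 libraries of MC3T3-E1 cells cultured alone were not used here. The paper describes the C4-2B cells of its mixed co-cultures as labelled with GFP. Each line is a single cell line, and the labels do not say that the 3 libraries of a group came from separate cultures.

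TGF-beta ligands are secreted in a latent form and bind a pair of serine/threonine kinase receptors. The type II receptor binds the ligand and phosphorylates the type I receptor, which then phosphorylates SMAD2 and SMAD3. These join SMAD4, enter the nucleus and regulate transcription, while SKIL represses the same targets. Bone matrix is a large store of latent TGF-beta, and the pathway is known for slowing the division of epithelial cells.

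The value analysed for each gene was the authors' mean normalised count, which averages the 6 libraries of both groups after division by size factors. The mean covers both groups, and the groups were not compared here, so the values describe the level of each gene in the pooled libraries and not a response to the osteoblasts. Xenome kept human reads before alignment, XenofilteR removed mouse reads after alignment to both genomes, and Kallisto assigned reads to the joined human and mouse transcripts. The 3 pipelines were normalised separately, so ratios between them were scaled by the median ratio over genes with a mean of at least 10 in both.

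How far a human and a mouse gene can be told apart depends on their sequence, so the stretches of coding sequence that are identical between the species are given first. The 3 sequences below belong to TGFB1, TGFB2 and SMAD3, and are examples of runs of different length. They are written 5′ to 3′ on the sense strand, from the human GENCODE transcripts, and capitals mark the longest coding run identical in the mouse counterpart, with 15 bases on each side.
TGFB1: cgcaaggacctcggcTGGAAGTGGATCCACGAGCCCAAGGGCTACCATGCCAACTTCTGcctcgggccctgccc
TGFB2: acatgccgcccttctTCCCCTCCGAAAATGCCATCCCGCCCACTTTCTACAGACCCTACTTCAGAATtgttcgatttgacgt
SMAD3: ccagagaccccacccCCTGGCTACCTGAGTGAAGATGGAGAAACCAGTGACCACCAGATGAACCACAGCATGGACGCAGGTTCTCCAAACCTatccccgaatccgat
On GRCh38 the TGFB1 stretch lies at chr19:41332162-41332235 on the minus strand, in exon 6, and its identical run had 44 bases. The TGFB2 stretch crosses from exon 1 to exon 2 on the plus strand of chr1:218347021-218405223 and its run had 52 bases. The SMAD3 stretch covers exons 3 to 5 on the plus strand of chr15:67165381-67170581, and its run of 77 bases lies in exons 4 and 5.

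Sequencing reads had 50 bases at each end, so a read that lies within the coding sequence of a gene whose longest coding run is shorter carries at least 1 difference from the mouse counterpart. In 5 of the members, TGFB1, TGFBR1, TGFBR2, TGFBR3 and SMAD2, the longest coding run had 38 to 47 bases, and none of their coding 50-base windows was identical in the mouse gene. The other members had such windows, and their share of the coding windows was 0.251% in TGFB2, 0.949% in SKIL, 2.28% in SMAD3, 3.45% in TGFB3 and 6.41% in SMAD4. SMAD4, the partner shared by all receptor-activated SMADs, had the longest run, with 129 bases in exons 6 and 7. The remaining windows lay outside the coding sequence or across its edges. Of these, 0.602% in TGFBR1, 0.267% in SMAD4, 0.098% in SKIL and 0.0542% in SMAD2 were identical as well, against 0 in the other 6. The 50-base windows came from a single representative transcript of each gene. Over all annotated transcripts of a gene, 0.23% (TGFBR3) to 2.29% (TGFB3) of distinct 31-base sequences also occurred in a mouse transcript, on either strand. The median over 19874 protein-coding genes was 0.502%, which 7 of the 10 members exceeded. The exceptions were TGFBR2 with 0.263%, TGFBR3 with 0.23% and SMAD2 with 0.466%.

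**Figure D1:**
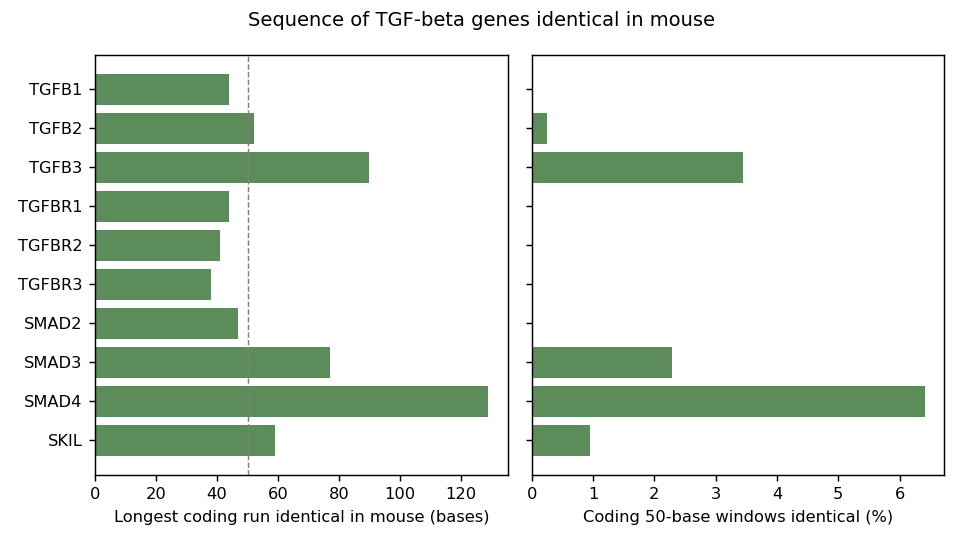
Longest coding run of each gene identical in its mouse counterpart, in bases (left, dashed line at the read length of 50 bases), and percentage of coding 50-base windows identical in mouse (right), from the human and mouse GENCODE transcripts. SMAD4 (129 bases, 6.41%) and TGFB3 (90 bases, 3.45%) stand highest, and 5 genes have no identical window.

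TGFB2 was the ligand with by far the highest level. TGFB2 had a mean normalised count of 406 in both Xenome and XenofilteR and of 496 in Kallisto. TGFB3 had 20.9, 22.9 and 16.6 in the same order, and TGFB1, the ligand best known as a store in bone matrix, had 1.98, 1.59 and 18.1. Per kb of exons, the Xenome level of TGFB2 was 67.1, that of TGFB3 4.01 and that of TGFB1 0.608, so TGFB2 stood 16.7 times above TGFB3 and 110 times above TGFB1. In Kallisto the same ratios per kb of exons were 25.7 and 14.8, and the Xenome mean of TGFB1 under the larger ratio had a counting error of 29.5%. That error leaves out 2 of the 6 libraries, in which TGFB1 had 0 reads and where the 3 reads that a count of 0 allows would add 3.45 and 4.59 to the mean of 1.98, so the ratio of 110 could be several times lower. With the length of the MANE transcript (the single representative transcript of a gene) in place of all exons, the ratios were 11.3 and 96.8 in Xenome and 17.4 and 13.0 in Kallisto. The order of TGFB3 and TGFB1 depended on the pipeline. Per kb, Xenome gave TGFB3 6.59 times the level of TGFB1, whereas in Kallisto the level of TGFB3 per kb was 0.575 times that of TGFB1.

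**Figure D2:**
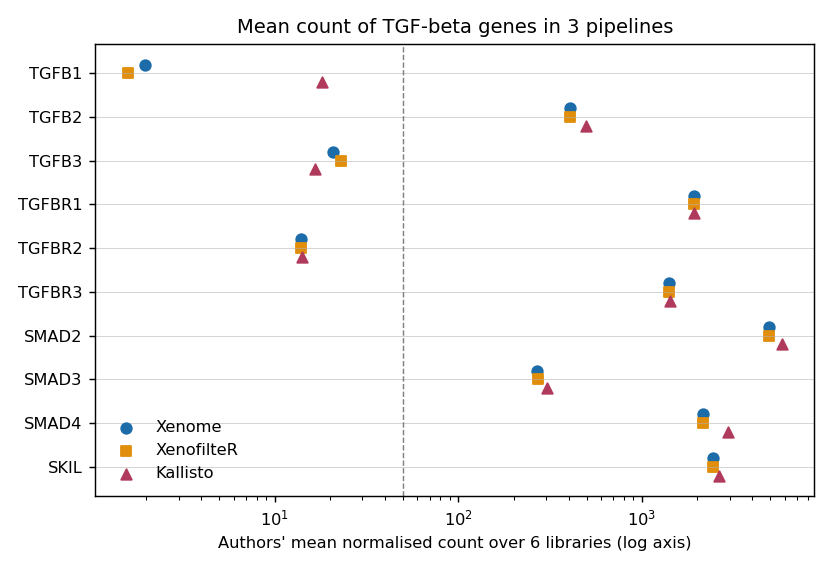
Authors' mean normalised count of each gene over 6 libraries (log axis) with Xenome (circles), XenofilteR (squares) and Kallisto (triangles); the dashed line is a mean of 50. The 3 values of a gene lie within 1.38 times of each other except in TGFB1, where the highest is 11.4 times the lowest.

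Of the receptors, the type I receptor TGFBR1 and the co-receptor TGFBR3 had means above 1000 and the type II receptor TGFBR2 had a mean near 14.0, the lowest but 1 of the 10 members in Xenome. TGFBR1 had a mean normalised count of 1915 by Xenome, 1912 by XenofilteR and 1921 by Kallisto. TGFBR3 (betaglycan), which presents ligand to the signalling receptors, had 1412, 1412 and 1431. TGFBR2, the kinase that binds the ligand directly, had 14.0, 14.0 and 14.1. Per kb of exons, the Xenome level was 239.7 for TGFBR1, 165 for TGFBR3 and 2.04 for TGFBR2. This put TGFBR1 117 times and TGFBR3 80.5 times above TGFBR2, or 95.4 and 72.1 times per kb of the MANE transcript. The Xenome mean of TGFBR2 under these ratios rests on 322 reads, with reads in 5 of 6 libraries. The ratio of TGFBR1 to TGFBR3 was 1.46 per kb of exons and 1.32 per kb of the MANE transcript. These 3 receptors differed little between pipelines, and for each the highest of 3 means was at most 1.01 times the lowest.

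SMAD2 had the highest mean of all 10 genes, at 4932 with Xenome, 4909 with XenofilteR and 5775 with Kallisto. Its representative transcript has 34626 bases, most of them outside the coding sequence of 1401 bases, and per kb of exons its Xenome level of 135 was the fourth in order. SMAD4 had means of 2154, 2158 and 2939, and SMAD3 of 267, 271 and 303. Per kb of exons, SMAD2 stood 5.08 times and SMAD4 4.12 times above SMAD3 in Xenome. Per kb of the MANE transcript these ratios were 3.45 and 5.95. The order of SMAD2 and SMAD4 turned with the length that was used, with a ratio of SMAD2 to SMAD4 of 1.23 per kb of exons and 0.58 per kb of the MANE transcript. SKIL (SnoN), the repressor, had means of 2435, 2429 and 2624 and the highest Xenome level per kb, 300.0. This was 2.73 times that of SMAD4 per kb of exons and 1.39 times per kb of the MANE transcript. In Kallisto the same ratios of SKIL to SMAD4 were 2.16 and 1.09.

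**Figure D3:**
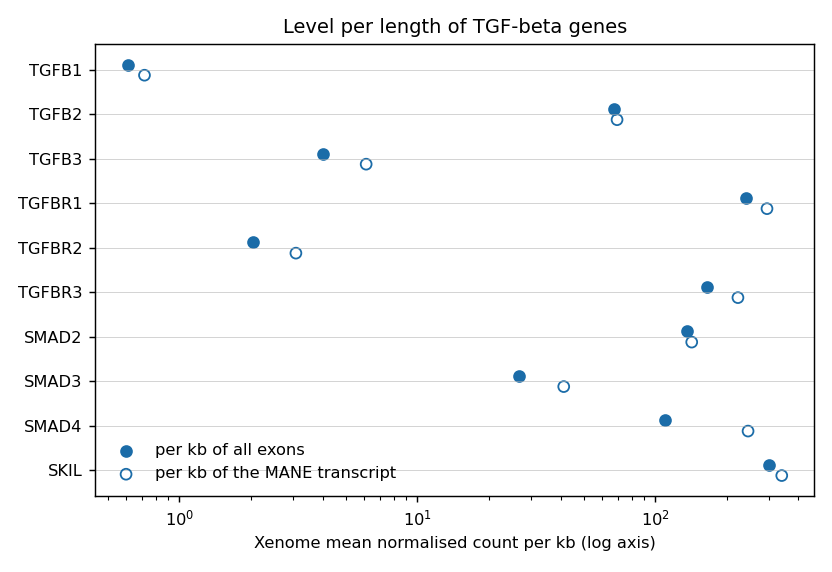
Xenome mean normalised count of each gene per kb (log axis), with the length of all exons (filled circles) or of the MANE transcript (open circles). SKIL and TGFBR1 are highest and TGFB1, TGFBR2 and TGFB3 lowest with either length, while SMAD4 moves from 110 to 246.

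Among the 39193 genes above 0 with Xenome, 9 of the 10 members lay above the median gene, and among the 17827 protein-coding genes above 0, 5 did. Within the protein-coding genes the members ran from the 15.8th percentile for TGFB1 to the 88.6th for SMAD2. TGFBR2 was at the 27.1st percentile and TGFB3 at the 29.5th. SMAD3 at 44.4 and TGFB2 at 47.7 were just under the median gene. TGFBR3 at 64.9, TGFBR1 at 70.8, SMAD4 at 73.3 and SKIL at 75.6 were above it. Per kb of exons the percentiles of the same genes were closer together, from 16.0 for TGFB1 to 68.5 for SKIL, with SMAD2 at 54.4.

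TGFB1 was the 1 member whose level differed by 2-fold or more between pipelines. After scaling, the Kallisto mean of TGFB1 was 8.92 times the Xenome mean, a difference of 3.16 on the log2 scale. Kallisto had 18875 genes above 0, 18751 of them protein-coding, beside 39193 and 17827 with Xenome. Across the 17858 genes above 0 in both pipelines, 17.8% were at least 2-fold higher with Kallisto and 1.80% at least 2-fold lower. The counts of 1 member of 10 in the first direction and 0 in the second are near or under these shares. The low genes held most of these differences. Of 6188 genes with a Xenome mean under 50, 40.6% were at least 2-fold higher with Kallisto, against 5.65% of 11670 genes with a mean of at least 50. Of the members, 3 had a Xenome mean under 50, TGFB1 with the difference and TGFB3 and TGFBR2 without it. Among 1393 genes with a Xenome mean from 1 to 4, 75.2% had a smaller ratio than TGFB1.

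The remaining members differed by less. The scaled Kallisto mean was 1.33 times the Xenome mean for SMAD4, 1.20 times for TGFB2, 1.15 times for SMAD2 and 1.11 times for SMAD3. It was 1.05 times for SKIL, 0.991 times for TGFBR3, 0.982 times for TGFBR2, 0.981 times for TGFBR1 and 0.778 times for TGFB3, the lowest. In 4 of the 10 members, SKIL and the 3 receptors, the means of Kallisto and Xenome were within 10% of each other, as in 9794 of the 17858 genes. The median log2 ratio was 0.11 over the members and 0.01 over all 17858 genes.

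**Figure D4:**
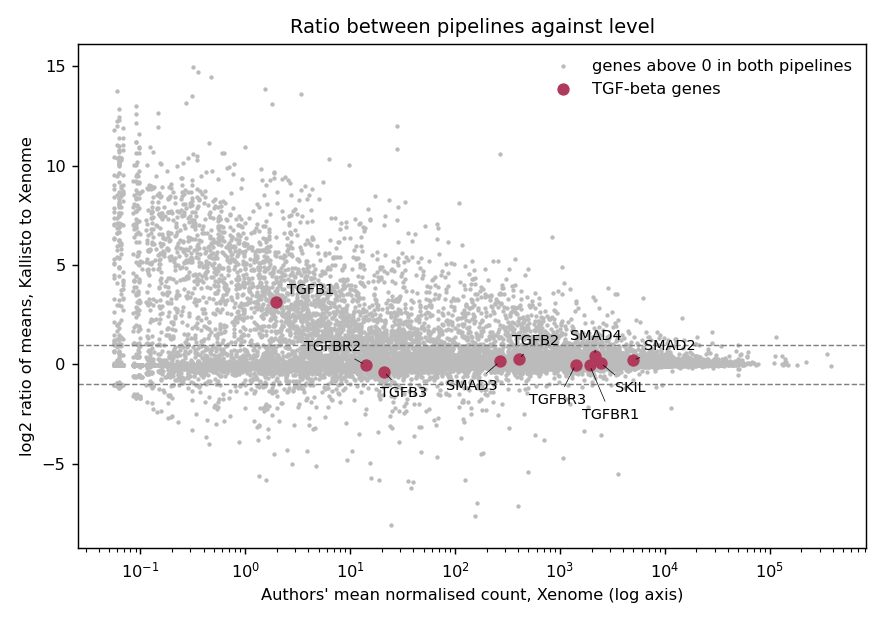
Scaled log2 ratio of the Kallisto mean to the Xenome mean against the Xenome mean (log axis) for 17858 genes (grey) and the 10 TGF-beta genes (red); dashed lines mark 2-fold. TGFB1 is at 3.16, inside the wide spread of genes of its level, and the other 9 genes are between the lines.

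Xenome and XenofilteR, which end in the same aligner and counter, gave nearly the same levels. None of the members differed by 2-fold between them, as 0.686% of 38914 genes did with the higher value in XenofilteR and 1.23% with the lower. The XenofilteR mean was 0.803 times the Xenome mean for TGFB1 and 1.10 times for TGFB3. In the other 8 members it was between 0.995 and 1.01 times the Xenome mean.

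For the 3 low members, the whole reads behind the mean were solved from the deposited value, and each had 1 solution. The 6 libraries are numbered here by what 1 of their reads adds to a mean, from 0.0281 in library 1 to 1.53 in library 6 with Xenome, and none was matched to a labelled sample or group. With Xenome, the size factors were 5.93, 5.31 and 4.86 in libraries 1 to 3 and 0.427, 0.145 and 0.109 in libraries 4 to 6. Libraries 4 to 6 made up 39.4% of the Xenome mean of TGFB1, 33.2% of that of TGFB3 and 30.5% of that of TGFBR2. With Xenome, TGFB1 had 16, 12, 11, 2, 0 and 0 reads in libraries 1 to 6, a total of 41. The 2 reads of library 4 made up 39.4% of its mean of 1.98, whose counting error was 0.585. With XenofilteR the reads were 16, 12, 11, 1, 0 and 0, so that the whole difference between these pipelines was 1 read of library 4. In library 6, the 3 reads that a count of 0 allows would add more than the mean itself.

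TGFB3 had 140, 145, 160, 8, 2 and 1 reads with Xenome, a total of 456, and its mean of 20.9 had a counting error of 2.58. XenofilteR kept 145, 152, 163, 9, 3 and 1 reads, which was 17 more, with more reads in 5 of 6 libraries and the same number in library 6. The XenofilteR mean was higher by 2.00. TGFBR2 had 112, 116, 86, 7, 0 and 1 reads with Xenome and 114, 116, 85, 7, 0 and 1 with XenofilteR, and its mean of 14.0 had a counting error of 1.93 in both. That error leaves out library 5, where the 3 reads that a count of 0 allows would add 3.45. These errors cover counting alone and leave out the spread between libraries. No such solution is given for TGFB2, SMAD3 and the 5 more abundant members, whose means lie above the range that was checked, which ended at 25. Kallisto counts are estimates that need not be whole.

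**Figure D5:**
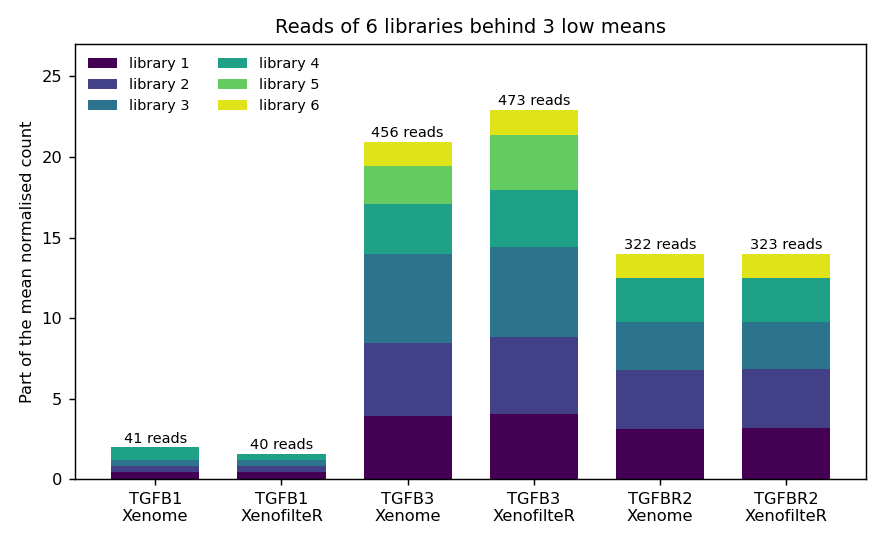
Part of the mean normalised count that the reads of each of 6 libraries contribute, for TGFB1, TGFB3 and TGFBR2 with Xenome and XenofilteR; the total number of reads stands above each bar. TGFB1 rests on 41 and 40 reads, with 0 reads in libraries 5 and 6.

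The annotation sets a further limit on some members. In GENCODE release 44, TGFB1 (chr19:41301587-41353922, minus strand) shares 215 exon bases, or 6.59%, with HNRNPUL1 on the opposite strand. TGFB2 (chr1:218345336-218444619, plus strand) shares 1371 bases, or 22.7%, with the long non-coding RNA TGFB2-OT1 on its own strand, and 701 bases, or 11.6%, with TGFB2-AS1 on the opposite strand. TGFB3 shares 163 bases (3.12%) with TGFB3-AS1 and SMAD3 182 bases (1.82%) with a non-coding gene, both on the opposite strand. SMAD4 shares 967 bases (4.93%) with a protein-coding gene model on its own strand. TGFBR1, TGFBR2, TGFBR3, SMAD2 and SKIL share none. The library kit marks the strand, but the strand setting of the counting was not given in the sources used here. TGFB2 and SMAD4, the members with same-strand overlap, had Kallisto to Xenome ratios of 1.20 and 1.33, and the part of the overlap in these ratios was not tested.

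The other genes of the pathway were described with a list of 46, all of which had a value in the table. With Xenome, 28 of the 46 had a mean of at least 1000 and 13 had a mean under 50, beside 5 and 3 of the 10 members. The highest means were those of NEDD4L, a ubiquitin ligase that acts on activated SMADs (14640), PMEPA1, a feedback inhibitor (9936), and STRAP, a receptor-associated adaptor (9450). The lowest were those of ACVRL1, a type I receptor typical of endothelium (0.453), and DCN, a matrix proteoglycan that binds the ligand (0.966). With Kallisto, 6 of the 46 were at least 2-fold higher and 0 at least 2-fold lower, beside 17.8% and 1.80% of the genes above 0 in both pipelines. All 6 were among the 13 genes with a Xenome mean under 50, where the share of those background genes was 40.6%. Neither count therefore stands apart from the background. The largest log2 ratios were 6.03 for DCN and 5.46 for ACVRL1, beside 3.16 for TGFB1. The median log2 ratio of the list was 0.01.

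Markers of both cell types were read in the same table. Of 10 luminal prostate markers, 9 had a row, and their Xenome means ran from 4603 (TMPRSS2) to 51038 (KLK3). Of 16 osteoblast or mesenchymal markers, 8 had a Xenome mean under 50 and 8 a higher one. The osteoblast genes BGLAP at 3.78, SP7 at 0.984 and ALPL at 0.103 were low, whereas RUNX2, the osteoblast transcription factor, was at 411 and COL1A1, the main collagen of bone, at 3384. Their summed means were 44793 with Xenome, 46910 with XenofilteR and 44792 with Kallisto, of which FN1 alone made up 40055 with Xenome. In XenofilteR, 3 of the 16 were at least 2-fold higher than in Xenome, beside 0.686% of 38914 genes above 0 in both, with the largest ratio for COL3A1, 8.85. All 3 had a Xenome mean under 50, and the share among genes of that level was not computed. In Kallisto, 1 of the 16 was at least 2-fold higher than in Xenome and 2 at least 2-fold lower. The shares were 17.8% and 1.80% over the 17858 genes above 0 in both of these pipelines. TGFB3, the member with the largest excess in XenofilteR, had a ratio of 1.10, and the part of mouse RNA in the level of any member was not tested.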

How the data were processed

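Stranded mRNA libraries from 3 samples each of C4-2B alone and of the co-culture were sequenced as 50-base pairs. For Xenome, the authors sorted out human reads before HISAT2 alignment to GRCh38, for XenofilteR they discarded mouse reads after alignment to GRCh38 and GRCm38, and both ended in featureCounts per gene. For kallisto they used an index of human and mouse transcripts together. The authors deposited 1 table from DESeq2 with, for each pipeline, the mean over both groups of counts divided by size factors, and their own fold changes, standard errors, test statistics and p-values. Those comparison columns were not used, so co-culture and C4-2B alone were not compared, and the planned count test was not run because the table holds no columns of single libraries. The labels give a minimum depth for reads of both species together, and the size factors stand here for the relative human depth per library.

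Of 41734 rows, 21 that repeat a gene were dropped. Ratios of means were scaled by the median over genes with a mean of at least 10 in both pipelines (13262 genes for Kallisto, log2 0.03, and 19025 for XenofilteR, log2 0.00), and 2-fold was the limit for a difference. Whole reads were solved as sums of the values that 1 read of each library adds. In a check of every 40th mean in order of size, all 501 taken of 20014 Xenome means below 10 and all 497 of 19873 XenofilteR means had 1 solution, as did all 79 taken of 3137 Xenome means and all 78 of 3112 XenofilteR means from 10 to 25. The counting error is the root of the summed squared values of all reads. Exons and transcripts came from GENCODE release 44 (human) and M21 (mouse), and the table's coordinates equal those of release 44 for 6 of 10 members. Work was done in Python 3.11.15 with numpy 2.4.6 and pandas 2.3.3.

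All 10 members are named, and genes of the pathway list for the highest and lowest 3 of a quantity. The members and lists were chosen with earlier results of these data known. The markers named were picked after their values were seen. Some items that these rules would name are not reported here.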

Additional observations from a re-analysis of the deposited data

How the results depend on the processing

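No paired analysis was possible because the table holds no column of a single library, and for the same reason the planned normalisation, low-count filter and leave-one-out alternatives of the comparison of co-culture with C4-2B alone were not run. The number of members above the median gene was 9 of 10 among all genes above 0, 5 of 10 among protein-coding genes and 5 of 9 among genes with a mean of at least 10, which leave out TGFB1. The percentiles of low members moved with this choice. In the same order, TGFBR2 was at 54.1, 27.1 and 6.21 and TGFB3 at 57.7, 29.5 and 13.5, whereas SMAD2 was at 94.7, 88.6 and 89.2. The number of members with a mean under 50 was 3 in each pipeline. The counts of members past 2-fold between pipelines were the same, 1 higher with Kallisto and 0 in the other 3 directions, without scaling, with equal column sums, with scaling genes of at least 100 and with a pseudocount of 1. The ratio of TGFB1 from Kallisto to Xenome ranged from 6.26 with the pseudocount to 9.12 without scaling, and was 11.2 when XenofilteR took the place of Xenome, an alternative chosen after seeing the data. No ratio of a member moved by over 1.5 times under these settings. The level of TGFB1 moved with the pipeline, from 1.59 (XenofilteR) and 1.98 (Xenome) to 18.1 (Kallisto), and 1 read of library 6 adds 1.53 to a mean.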
